A study of Mus musculus with 10 samples.

Results

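The 6 matrix metalloproteinases Mmp2, Mmp3, Mmp9, Mmp11, Mmp14 and Mmp15 and the 4 tissue inhibitors of metalloproteinases Timp1, Timp2, Timp3 and Timp4 were examined in trained and untrained mouse hearts. These 10 genes were chosen by name, out of 56748 genes in the count files, and matched by Ensembl identifier through GENCODE M39. RNA was sequenced from the whole hearts, atria and ventricles together, of 10 wild-type C57BL/6 mice bought at 8 weeks of age. The 5 training mice had run on a motorised treadmill at 15 m/min for 120 min a day, on 5 days a week, for 8 weeks. The 5 sedentary mice were of the same age and did not run. Each library was made from 1 heart. The training was forced, so that running and handling on the treadmill cannot be told apart.

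Matrix metalloproteinases (MMPs) are zinc enzymes that cut collagens and other proteins outside the cell. Most are made with a propeptide that keeps them inactive until it is removed, and TIMPs then block the active enzyme by placing their first cysteine on its zinc. In the heart, fibroblasts, endothelial cells, cardiomyocytes and immune cells all contribute to this system, which takes part in matrix turnover under load and after injury.

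Both partners of this lock can be read in the genes. The codons of the zinc-binding site of each MMP are shown here from the GENCODE M39 transcripts, 33 bases each, with positions on GRCm39. The histidine codons that hold the zinc are in capitals. Each site lay within 1 coding exon.
Mmp2 (chr8:93565907-93565939, plus strand, exon 8 of 13): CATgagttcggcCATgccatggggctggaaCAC
Mmp9 (chr2:164793053-164793085, plus strand, exon 8 of 13): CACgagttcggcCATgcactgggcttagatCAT
Mmp3 (chr9:7449775-7449807, plus strand, exon 5 of 10): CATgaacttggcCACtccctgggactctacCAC
Mmp11 (chr10:75762765-75762797, minus strand, exon 5 of 8): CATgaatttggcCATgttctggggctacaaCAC
Mmp14 (chr14:54675084-54675116, plus strand, exon 5 of 10): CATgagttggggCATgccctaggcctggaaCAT
Mmp15 (chr8:96095213-96095245, plus strand, exon 5 of 10): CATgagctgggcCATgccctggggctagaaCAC
The spacing of the histidine codons was the same in every enzyme, while the sequence between them differed. Over whole proteins translated from the annotation, the membrane-bound pair Mmp14 and Mmp15 was the most alike, with 59.1% identical residues, followed by the gelatinases Mmp2 and Mmp9 with 51.0%. The other MMP pairs ranged from 39.5% to 47.8%. A furin cleavage motif before the catalytic site was found in Mmp11, Mmp14 and Mmp15, but not in Mmp2, Mmp3 or Mmp9.

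The first codons of the mature inhibitors, 27 bases each, are shown to place the 4 TIMPs side by side. The capitals mark the cysteine codons, of which the first encodes the residue that binds the zinc.
Timp1 (chrX:20737350-20737376, plus strand, exon 2 of 6): TGTagcTGTgccccaccccacccacag
Timp2 (chr11:118245812-118245838, minus strand, exon 1 of 5): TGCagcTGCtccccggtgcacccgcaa
Timp3 (chr10:86136787-86136813, plus strand, exon 1 of 5): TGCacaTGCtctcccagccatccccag
Timp4 (chr6:115228626-115228652, minus strand, exon 1 of 5): TGCagcTGTgcgcctgcgcacccccag
The inhibitor proteins shared between 40.1% (Timp1 and Timp3) and 49.3% (Timp2 and Timp4) of their residues. None of the 10 genes overlapped another of them in the annotation.

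The inhibitors outnumbered the enzymes in the RNA of every heart. Levels of different genes were compared on the authors' TPM, a measure of transcript abundance that is corrected for transcript length and library size. Timp3, whose protein stays bound to the matrix, had the highest level, with 115 ± 15.0 TPM in training and 95.3 ± 8.59 TPM in sedentary hearts (SD, n = 5 each). Timp2, which inhibits MMPs and also helps Mmp14 to activate Mmp2, came next with 68.3 ± 9.44 and 59.9 ± 5.37 TPM. The lowest Timp3 value of any heart (86.8 TPM) was above the highest Timp2 value (84.9 TPM), and every Timp2 value was above every Mmp2 value.

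The order below Timp2 was Mmp2, Mmp15, Timp4, Mmp14, Mmp3, Timp1, Mmp11 and Mmp9 by the median of the 10 hearts. Mmp2, the constitutive gelatinase of fibroblasts, had a median of 33.7 TPM and a range of 24.4 to 37.3 TPM. Mmp15, a membrane-bound MMP, had a median of 24.0 TPM and a range of 20.6 to 25.5 TPM. These neighbours overlapped, as did Mmp15 with Timp4 (11.8 to 21.9 TPM), Mmp14 with Mmp3, and Mmp3 with Timp1. Timp4 was above Mmp14 (7.16 to 11.1 TPM) in every heart, Timp1 (4.41 to 8.27 TPM) above Mmp11 (2.49 to 4.08 TPM), and Mmp11 above Mmp9 (0.73 to 1.34 TPM). The order was the same in both groups except for Mmp3 and Timp1, which exchanged places.

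**Figure D1:**
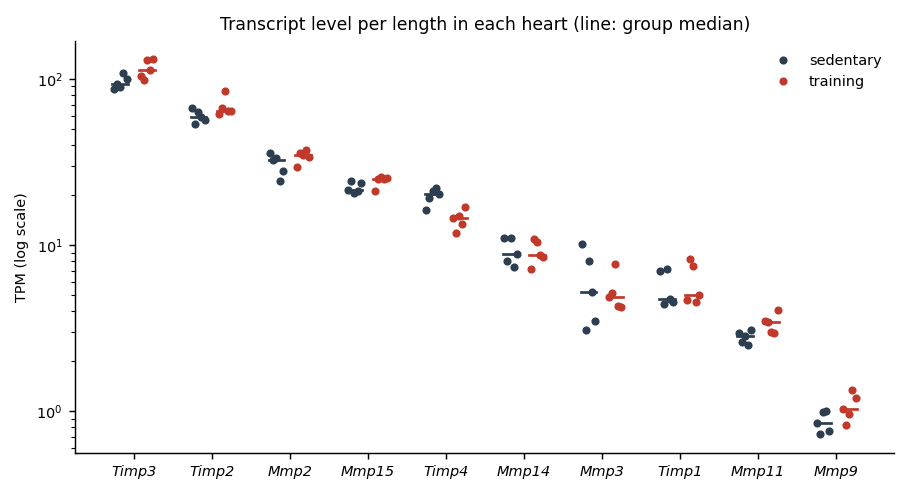
Transcript level of each gene in each heart, in TPM on a log axis, with training hearts in red, sedentary hearts in dark blue and a line at each group median. Timp3 and Timp2 lay above all enzymes, Mmp9 below all others, and Timp4 was the gene whose groups stood furthest apart.

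Summed over the 4 inhibitors, the level was 204 ± 23.1 TPM in training and 181 ± 8.55 TPM in sedentary hearts, and summed over the 6 enzymes it was 77.6 ± 6.02 and 72.1 ± 8.06 TPM (SD, n = 5 each). TPM is not scaled with the TMM factors used for the counts below. Counts without these factors gave a median log2 fold change of 0.053 over all genes. The part of scaling in the higher training sums was not tested. The ratio of the sums lay between 2.27 and 2.89 in training and between 2.14 and 3.14 in sedentary hearts, so that the groups overlapped throughout. The make-up of the inhibitor sum did separate them. Timp4 held 7.05% ± 0.757 of the summed TIMP TPM in training and 10.9% ± 0.975 in sedentary hearts, and the highest training value (7.85%) was below the lowest sedentary one (9.21%). This share is a description without a test, since it is made of the same values as the gene comparison that follows.

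To find which of the genes differed after training, the quasi-likelihood test of edgeR was run on the counts of all 15454 genes with enough reads, with Benjamini-Hochberg adjustment and an FDR below 0.1. All 10 genes had enough reads to be tested. Timp4 was lower in training hearts, and none of the other 9 passed. That is 1 of 10 genes, against 7.01% of all genes tested (2.75% higher and 4.26% lower). The median log2 fold change was 0.05 over the 6 MMPs and 0.09 over the 4 TIMPs, against 0.00026 over all genes tested. In RNA from a whole organ, fewer cells of a type and less RNA per cell cannot be told apart.

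Timp4 (ENSMUSG00000030317, GRCm39 chr6:115187773-115229336, minus strand) is the TIMP best known for its expression in the heart. Its normalised read counts, in CPM (counts scaled to a common library size with TMM factors), were 63.6, 47.3, 55.3, 52.1 and 69.8 in training hearts 1 to 5. In sedentary hearts 1 to 5 they were 68.3, 87.2, 84.3, 85.2 and 82.9 CPM. The groups overlapped through a single pair, training heart 5 and sedentary heart 1, and the other sedentary hearts lay close together. All 5 training hearts were below the sedentary mean. The mean was 57.6 ± 9.03 CPM in training and 81.6 ± 7.60 CPM in sedentary hearts (SD, n = 5), so that it fell by 29.4%, and the log2 fold change was -0.50 (standard error 0.096, edgeR adjusted p = 0.0187).

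Timp4 stayed lower when any 1 of the 10 hearts was omitted, with log2 fold changes from -0.58 to -0.44 and edgeR adjusted p from 0.00759 to 0.0573. DESeq2, the expected counts of RSEM and the counts of both strands also called it lower. Its gene lies within Syn2, which is read from the opposite strand and codes for a synaptic vesicle protein. Syn2 had 157 to 312 counts per heart against 1653 to 3166 for Timp4, and the strand opposite to Timp4 held only 19 to 40 counts over its exons.

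**Figure D2:**
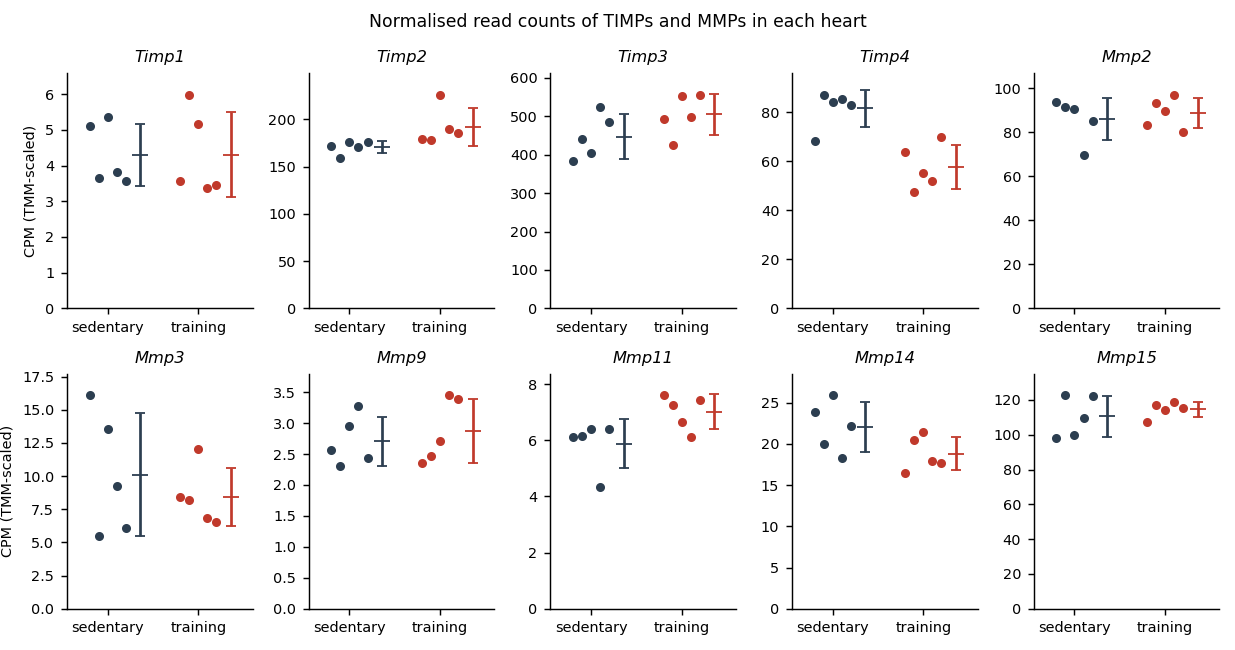
Normalised read counts (CPM, each axis from 0) of the 4 TIMPs and 6 MMPs in each heart, sedentary hearts in dark blue and training hearts in red, mice 1 to 5 from left to right, with mean ± SD beside the points. Timp4 was lower in training hearts apart from 1 overlapping pair. Timp2 did not overlap but was not called by edgeR, and the other genes overlapped.

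The cell type and chamber markers did not stay level between the groups. The counts of called markers below stand against 7.01% of all genes tested with edgeR, and each list is short. The 6 cardiomyocyte markers, of which none was at 0, summed to 52334 ± 1175 CPM in training and 57718 ± 2700 CPM in sedentary hearts. Myh6, the main myosin of the adult mouse heart, was the highest of them by CPM, without correction for transcript length. The sums were 53817, 53023, 50704, 51914 and 52212 CPM in training hearts 1 to 5. In sedentary hearts 1 to 5 they were 53695, 57536, 57603, 61217 and 58541 CPM. Sedentary heart 1, the one with the low Timp4 value, also had the lowest cardiomyocyte sum of its group, within the range of the training hearts. Among the other hearts the 2 measures did not follow the same order. Training heart 2 had the lowest Timp4 value with a sum of 53023 CPM, and training heart 5 the highest of its group with 52212 CPM. Of sedentary hearts 2 to 5, heart 2 had the highest Timp4 value and the lowest sum. By edgeR 1 of the 6 was called, Actc1, cardiac actin, which was lower, and DESeq2 called 3 (Myh6, Actc1 and Ryr2).

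The 5 atrial markers, led by the natriuretic peptide gene Nppa and with none at 0, summed to 5974, 5206, 7306, 6344 and 4795 CPM in training hearts 1 to 5. In sedentary hearts 1 to 5 the sums were 6620, 2678, 4463, 4654 and 2681 CPM. Sedentary hearts 2 and 5 thus stood apart with low atrial sums, and sedentary heart 1 again lay among the training hearts. Both edgeR and DESeq2 called 1 of these 5 markers, Sln, which was higher. The 8 fibroblast markers, led by Dpt and with none at 0, summed to 487, 505, 562, 505 and 488 CPM in training and to 513, 420, 503, 409 and 445 CPM in sedentary hearts, with 2 of 8 called higher by edgeR and 3 called by DESeq2. The 6 endothelial markers, led by Pecam1 and with none at 0, summed to 757, 825, 821, 823 and 811 CPM in training hearts and to 845, 886, 883, 841 and 856 CPM in sedentary hearts. These sums did not overlap between the groups, and by edgeR 1 of the 6 markers was called, lower, and DESeq2 called 1.

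The 7 mural cell markers, led by Rgs5, a pericyte gene, summed to 1294 ± 72.4 CPM in training and 1329 ± 72.6 CPM in sedentary hearts. Tagln, a smooth muscle gene, was higher (log2 fold change 0.54, edgeR adjusted p = 0.0618) and Rgs5 lower (-0.18, edgeR adjusted p = 0.0814). The 4 glucocorticoid-responsive genes, led by Zbtb16, summed to 361 ± 73.3 CPM in training and 455.0 ± 79.7 CPM in sedentary hearts, and 1 of them, Fkbp5, was lower (-0.50, edgeR adjusted p = 0.0890). No gene of either list was at 0, and the part of these 2 lists in the Timp4 difference was not tested.

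With a score of the atrial markers as a covariate the log2 fold change of Timp4 was -0.41 (edgeR adjusted p = 0.188), and with a fibroblast score it was -0.35 (edgeR adjusted p = 0.182). With a cardiomyocyte score, a fit chosen after seeing the data, it was -0.34 with a larger standard error of 0.154 (edgeR adjusted p = 0.592). With an endothelial score, chosen after seeing the data as well, it was -0.57 (standard error 0.129, edgeR adjusted p = 0.107). Without sedentary hearts 2 and 5, also chosen after seeing the data, it was -0.46 (edgeR adjusted p = 0.101). The direction held in all of these fits and the call was lost in each. Losing calls was not particular to Timp4. Over all genes, 1084 were called in the main fit and 126, 195, 23, 73 and 282 in these 5 fits, in the order given. The part of tissue make-up in the difference was not tested beyond these fits. With a score of circadian clock genes, the log2 fold change was -0.59 and Timp4 kept its call. Of the 14 clock genes 8 were called, 5 higher and 3 lower, against 7.01% of all genes tested. Changes in both directions thus offset each other in this score. The scores overlapped, at -0.10 to 0.20 in training and -0.33 to 0.18 in sedentary hearts. The part of the clock difference was therefore not tested by this fit.

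**Figure D3:**
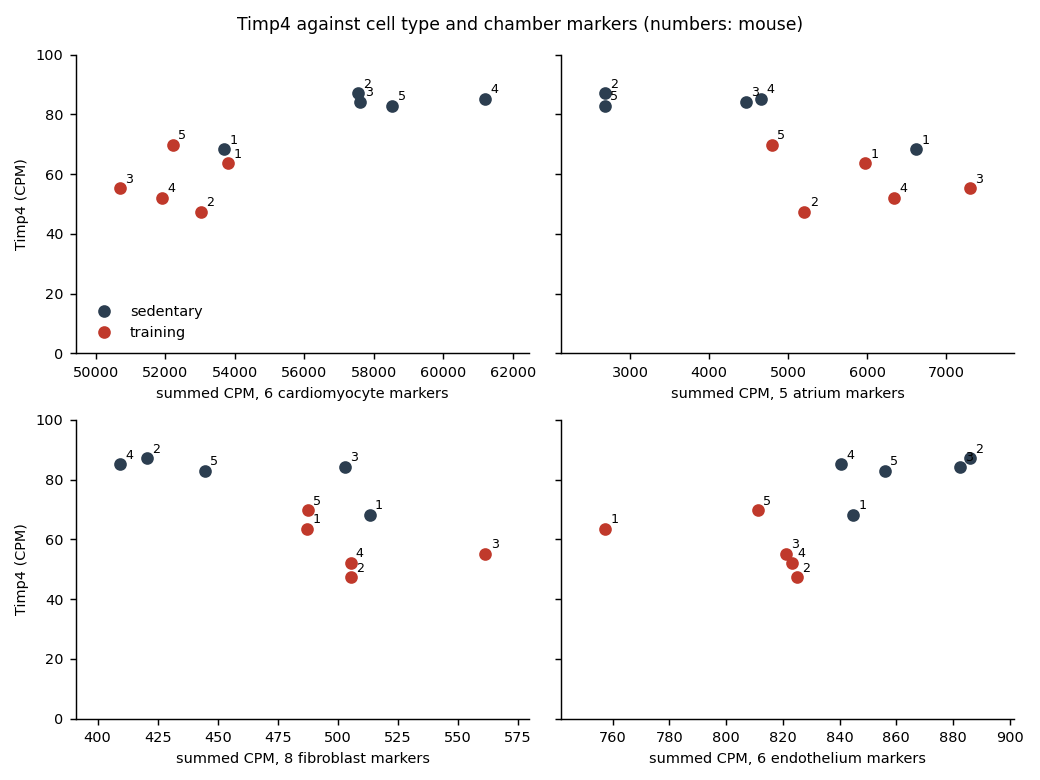
Timp4 (CPM) against the summed CPM of 6 cardiomyocyte, 5 atrial, 8 fibroblast and 6 endothelial markers in each heart, training hearts in red and sedentary hearts in dark blue, numbered by mouse. The 4 sedentary hearts with high Timp4 had higher cardiomyocyte sums than every training heart, while sedentary heart 1 lay with the training hearts in all panels but the endothelial one, where all sedentary sums were higher. Among the training hearts, the lowest Timp4 value (heart 2) did not go with the lowest cardiomyocyte sum (heart 3).

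**Figure D4:**
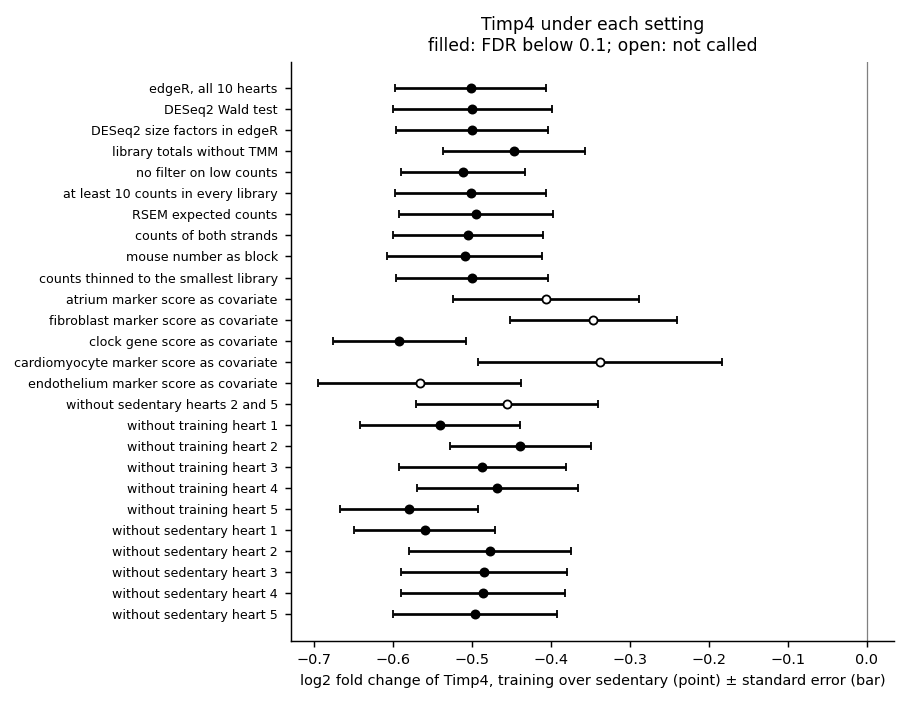
Log2 fold change of Timp4, training over sedentary hearts, with its standard error under every setting, filled where the FDR was below 0.1. All points were below 0, and the 5 open points are the fits with an atrial, fibroblast, cardiomyocyte or endothelial score and the one without sedentary hearts 2 and 5.

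Timp2 (ENSMUSG00000017466, chr11:118191887-118246566, minus strand) was the only one of the 10 genes whose groups did not overlap in CPM, against 5.06% of all genes tested. In TPM its groups did overlap, with 61.8 to 84.9 in training and 53.6 to 66.9 in sedentary hearts. It had 179, 178, 226, 189 and 186 CPM in training hearts and 172, 159, 176, 170 and 176 CPM in sedentary hearts. Training heart 3 was well above its group, and the lowest training heart was close to the highest sedentary ones. The mean of 192 ± 19.8 CPM in training hearts was above that of 170 ± 6.65 CPM in sedentary hearts, but the log2 fold change, 0.17 with a standard error of 0.061, did not pass (edgeR adjusted p = 0.146). It passed with DESeq2 (adjusted p = 0.0934) and with library totals in place of TMM factors (edgeR adjusted p = 0.0852). The log2 fold change was smaller with the atrial score (0.097, edgeR adjusted p = 0.650), the fibroblast score (0.065, edgeR adjusted p = 0.739) and the cardiomyocyte score (0.053, edgeR adjusted p = 0.930). It was 0.19 with the endothelial score, 0.17 with the clock gene score and 0.16 without sedentary hearts 2 and 5, and did not pass in these fits.

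Timp3 (ENSMUSG00000020044, chr10:86136236-86185371, plus strand) inhibits ADAM17 and aggrecanases besides MMPs. Training hearts 1 to 5 had 493, 426, 553, 498 and 556 CPM, and sedentary hearts 1 to 5 had 382, 440, 403, 524 and 484 CPM. The 2 highest values were training hearts and the 2 lowest were sedentary, with the others mixed. The log2 fold change of 0.18 (standard error 0.089) did not pass (edgeR adjusted p = 0.286). It was 0.31 and 0.32 with the fibroblast and cardiomyocyte scores, 0.07 and 0.10 with the clock gene and endothelial scores, and did not pass in any of these. Timp1 (ENSMUSG00000001131, chrX:20736316-20740976, plus strand), the TIMP that is usually induced by cytokines and injury, was low in both groups. It had 3.57, 5.98, 5.17, 3.36 and 3.45 CPM in training hearts and 5.09, 3.65, 5.35, 3.81 and 3.56 CPM in sedentary hearts. Both groups split into lower and higher hearts over the same range, and the means of 4.31 ± 1.197 and 4.29 ± 0.857 CPM were alike. Like Timp4, Timp1 and Timp3 lie within synapsin genes of the opposite strand, and those, Syn1 and Syn3, had at most 33 and 46 counts per heart.

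Among the enzymes, none of 6 genes passed with edgeR or with DESeq2, 2 had an unadjusted edgeR p under 0.05 (Mmp11 and Mmp14), and the groups overlapped in all 6. Mmp2 (ENSMUSG00000031740, chr8:93553902-93580049, plus strand) had 83.4, 93.2, 89.8, 97.1 and 80.2 CPM in training hearts and 93.6, 91.7, 90.6, 69.7 and 85.0 CPM in sedentary hearts. Apart from the low sedentary heart 4 the groups covered the same range, and the log2 fold change was 0.04 (standard error 0.076, edgeR adjusted p = 0.806). Without sedentary heart 4 it was -0.024, and it was 0.12 and 0.15 with the clock gene and endothelial scores, with no call in these fits. Mmp15 (ENSMUSG00000031790, chr8:96078895-96101708, plus strand) had 107, 117, 114, 119 and 115 CPM in training hearts and 98.2, 123, 99.7, 110 and 122 CPM in sedentary hearts. The training values lay inside the wider sedentary range, and the log2 fold change was 0.05 (standard error 0.064, edgeR adjusted p = 0.699). It was 0.11 with library totals, 0.19, 0.16 and 0.14 with the atrial, fibroblast and cardiomyocyte scores, 0.16 without sedentary hearts 2 and 5, 0.01 with the clock gene score and 0.013 to 0.093 with 1 heart left out, and passed in none of these.

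Mmp14 (ENSMUSG00000000957, chr14:54668878-54682821, plus strand), the membrane-bound collagenase that activates Mmp2 on the cell surface, had 16.5, 20.4, 21.5, 18.0 and 17.7 CPM in training hearts. In sedentary hearts it had 23.9, 20.0, 26.0, 18.3 and 22.2 CPM. The 3 highest hearts were sedentary and the other sedentary hearts fell among the training ones. Its log2 fold change was -0.23 (standard error 0.095, edgeR adjusted p = 0.202), and with the fibroblast score as a covariate it was -0.45 (edgeR adjusted p = 0.0317). With the cardiomyocyte, clock gene and endothelial scores it was -0.49, -0.14 and -0.07 and did not pass.

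Mmp11 (ENSMUSG00000000901, chr10:75759055-75772330, minus strand), a secreted enzyme activated by furin, had 7.61, 7.24, 6.67, 6.10 and 7.43 CPM in training hearts and 6.11, 6.16, 6.39, 4.35 and 6.41 CPM in sedentary hearts. Sedentary heart 4 was the lowest, and training heart 4 lay just below the other sedentary ones. Its log2 fold change was 0.25 (standard error 0.11, edgeR adjusted p = 0.205). It was 0.16 with the cardiomyocyte score and 0.16 without sedentary heart 4. The gene shares exonic sequence with Chchd10, an abundant gene of the opposite strand with 14786 to 22249 counts per heart. The opposite strand over Mmp11 held 8145 to 11888 counts and its own strand only 153 to 269, and where the exons overlap, reads on the wrong strand cannot be told apart from its own. Counting both strands, which drops reads shared by the genes, gave 147 to 237 counts. Its TPM depends on the strand setting of RSEM, which is not stated, and RSEM assigned it 142 to 224 expected counts per heart.

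Mmp3 (ENSMUSG00000043613, chr9:7445822-7455975, plus strand), or stromelysin, had the widest range, 2.95-fold between the extreme hearts. It had 8.44, 8.19, 12.0, 6.88 and 6.53 CPM in training hearts and 16.1, 5.46, 13.5, 9.28 and 6.11 CPM in sedentary hearts. The highest and the lowest values were both sedentary, and the lowest were hearts 2 and 5, which also had the low atrial sums. For Mmp3 the log2 fold change came to -0.26 (standard error 0.27, edgeR adjusted p = 0.636). It was -0.87 (edgeR adjusted p = 0.0606) with the atrial score and -0.86 (edgeR adjusted p = 0.0788) with the fibroblast score as a covariate. With the cardiomyocyte score it was -0.87 as well but did not pass (edgeR adjusted p = 0.520), with the endothelial score it was -0.17 and without sedentary hearts 2 and 5 it was -0.62. It was -0.03 without sedentary heart 1, -0.42 without sedentary heart 2, -0.13 without sedentary heart 3 and -0.43 without training heart 3. Mmp3 thus passed with the atrial and fibroblast scores and in none of the other fits named here.

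Mmp9 (ENSMUSG00000017737, chr2:164780439-164797771, plus strand), the gelatinase that neutrophils and macrophages carry, had the lowest level. Training hearts had 2.35, 2.46, 2.704, 3.46 and 3.38 CPM and sedentary hearts had 2.56, 2.31, 2.95, 3.27 and 2.44 CPM, from 79 to 115 counts per heart. The groups overlapped, and the log2 fold change was 0.08 (standard error 0.14, edgeR adjusted p = 0.806). Without 1 heart it ran from 0.0053 (without training heart 4) to 0.16 (without sedentary heart 4), and Mmp9 passed in none of the alternative fits. The 9 neutrophil markers summed to at most 5.99 CPM in any heart and 3 of them had enough reads to be tested, while the 8 macrophage markers, led by Csf1r, summed to 320 ± 25.0 CPM in training and 335 ± 34.2 CPM in sedentary hearts. By edgeR and by DESeq2 none of either list was called, and by edgeR 1 of the neutrophil and 0 of the macrophage markers had an unadjusted p under 0.05.

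The promoters of Mmp3 and Mmp9 carried the AP-1 motif TGAGTCA, the site bound by Fos and Jun proteins, in the 250 bases before the start of the canonical transcript. The motif, searched on both strands, was in 4.02% of 21770 promoter windows of the same length. It is shown in capitals within 31 bases because AP-1 control of these genes is well described.
Mmp3 (chr9:7445764-7445794, plus strand, 46 bases before the start): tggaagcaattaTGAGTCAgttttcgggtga
Mmp9 (chr2:164790058-164790088, plus strand, 69 bases before the start): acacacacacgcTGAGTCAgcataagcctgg
The other 8 windows did not hold these letters, which says nothing on the factor itself. The GC box GGGCGG was in 5 of the 10 windows and in 36.3% of all, TATAAA in 1 of the 10 and 11.9% of all, and the E-box CACGTG and AGATAA in none of the 10 and in 6.26% and 9.6% of all. Of 20 upstream genes, among them Fos and Jun family members, Tgfb1 and its relatives, and cytokines, 17 had enough reads and none passed with edgeR, although 4 had an unadjusted p under 0.05 and DESeq2 called 1, Tgfb2. The highest by CPM were Stat3 and Jund. Stat3 had 195 ± 13.1 CPM in training and 207 ± 16.7 CPM in sedentary hearts. Jund had 111 ± 8.68 and 98.6 ± 9.88 CPM.

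The pathway around the enzymes was read from 5 further lists that held 81 genes. Of the 68 with enough reads 1 was higher and 9 were lower, which is 14.7% against the 7.01% of all genes tested, and the median log2 fold change was 0.02. The lists were written with earlier results of these data known, so that the share is a description. The 10 called pathway genes belong to 4 of the lists.

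Of 17 other MMP genes 8 had enough reads and 9 did not. Mmp17, a glycolipid-anchored MMP, was lower, at 2.18, 2.12, 3.03, 3.08 and 2.42 CPM in training hearts against 3.43, 3.42, 3.14, 3.27 and 3.53 CPM in sedentary hearts. The groups did not overlap, although training hearts 3 and 4 came close to the lowest sedentary heart. The log2 fold change was -0.39 (standard error 0.12, edgeR adjusted p = 0.0955), and Mmp17 kept its call in 2 of the 10 fits that left out 1 heart and in 7 of all 25 alternative fits. By CPM the highest of these genes were Mmp23 and Mmp28, and neither passed. Mmp23 had 9.68 ± 1.16 CPM in training and 8.57 ± 0.879 CPM in sedentary hearts. Mmp28 had 6.43 ± 0.356 and 6.49 ± 0.714 CPM.

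Of 16 genes that activate or restrain MMPs 15 were tested, with 1 higher and 4 lower. Reck, which encodes a membrane-anchored inhibitor of MMPs, was the one that rose. It had 14.0, 15.7, 18.0, 15.6 and 15.5 CPM in training hearts and 13.0, 11.7, 13.0, 12.8 and 12.5 CPM in sedentary hearts. Every training heart was above every sedentary one, and the log2 fold change was 0.33 (standard error 0.066, edgeR adjusted p = 0.0223). The call held in each fit without 1 heart. It was lost with the atrial (0.25, edgeR adjusted p = 0.234), fibroblast (0.23, edgeR adjusted p = 0.237) and cardiomyocyte scores (0.19, edgeR adjusted p = 0.670) and without sedentary hearts 2 and 5 (0.29, edgeR adjusted p = 0.112).

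Furin, the protease that removes the propeptide of the MMPs with a furin motif, fell from 142 ± 7.37 to 123 ± 7.93 CPM without overlap (log2 fold change -0.20, standard error 0.051, edgeR adjusted p = 0.0482). Its call was lost at nearly the same log2 fold change without training heart 4 (-0.19, edgeR adjusted p = 0.112) or sedentary heart 3 (-0.20, adjusted p = 0.104). It was also lost with library totals (-0.15, edgeR adjusted p = 0.177) and with the cardiomyocyte (-0.34, adjusted p = 0.110) and endothelial scores (-0.16, adjusted p = 0.330). Bsg, whose protein basigin (EMMPRIN) induces MMPs in neighbouring cells, fell from 1026 ± 36.7 to 883 ± 46.2 CPM, also without overlap (log2 fold change -0.22, standard error 0.046, edgeR adjusted p = 0.0274). It lost its call with the atrial, fibroblast, endothelial and cardiomyocyte scores (log2 fold changes -0.16, -0.17, -0.24 and -0.14, edgeR adjusted p = 0.252, 0.220, 0.158 and 0.640) and without sedentary hearts 2 and 5 (-0.18, adjusted p = 0.146). By CPM, without correction for transcript length, Bsg was the highest gene of this list, followed by the scavenger receptor gene Lrp1. Lrp1 had 311 ± 35.7 CPM in training and 312 ± 38.4 CPM in sedentary hearts and did not pass.

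Lcn2, or lipocalin 2, was listed among the genes that activate or restrain MMPs. It had 3.31, 3.41, 5.14, 3.21 and 3.02 CPM in training hearts and 9.24, 7.80, 7.48, 6.57 and 4.38 CPM in sedentary hearts. Training heart 3 lay above sedentary heart 5, and the other hearts were separate. The log2 fold change of -0.97 (standard error 0.19, edgeR adjusted p = 0.0194) stayed past the threshold in 24 of 25 alternative fits. The exception was the endothelial score (-0.81, edgeR adjusted p = 0.199), and with the cardiomyocyte score the value was -1.47. The neutrophil markers summed to 2.43 ± 0.944 CPM in training and 3.60 ± 1.97 CPM in sedentary hearts, and their part in the Lcn2 difference was not tested.

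Of 10 ADAM and ADAMTS proteases that TIMPs also inhibit, 2 were lower. Adamts4, an aggrecanase inhibited by TIMP3, was lower at a very low level, with 0.45, 1.29, 1.10, 0.53 and 0.76 CPM in training hearts and 2.06, 1.61, 1.57, 1.28 and 1.95 CPM in sedentary hearts. Only training heart 2 reached the sedentary range, and the log2 fold change was -1.03 (standard error 0.25, edgeR adjusted p = 0.0438). Its call was lost with the atrial, cardiomyocyte and endothelial scores (log2 fold changes -1.01, -1.49 and -0.77, edgeR adjusted p = 0.207, 0.217 and 0.319). It was also lost without sedentary hearts 2 and 5 (-0.98, edgeR adjusted p = 0.159) and without training heart 4 (-0.91, adjusted p = 0.102). Adam17, the TNF-releasing sheddase, fell from 37.0 ± 1.04 to 33.3 ± 1.95 CPM without overlap (log2 fold change -0.15, standard error 0.046, edgeR adjusted p = 0.0928) but kept its call in only 2 of the 10 fits that left out 1 heart and 7 of all 25 alternative fits. The highest by CPM were Adam15 and Adam9, which did not pass. Adam15 had 74.9 ± 5.32 CPM in training and 80.4 ± 2.87 CPM in sedentary hearts. Adam9 had 68.7 ± 1.91 and 71.7 ± 3.63 CPM.

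Of 18 matrix proteins that MMPs can cut, the basement membrane collagens Col4a1 and Col4a2 were lower and the other 16 did not pass. Col4a1 fell from 595 ± 54.6 to 436 ± 44.3 CPM (log2 fold change -0.45, standard error 0.075, edgeR adjusted p = 0.0116) and Col4a2 from 484 ± 34.9 to 342 ± 32.8 CPM (log2 fold change -0.50, standard error 0.067, edgeR adjusted p = 0.00504). Neither overlapped between the groups, and Col4a2 kept its call in all 25 alternative fits and Col4a1 in 24. With the endothelial score, of whose 6 markers edgeR called 1 lower, the log2 fold changes were -0.31 for Col4a1 (edgeR adjusted p = 0.159) and -0.37 for Col4a2 (edgeR adjusted p = 0.0734). By CPM, which is not corrected for transcript length, the highest substrate genes were Hspg2 and Dcn. Hspg2, for perlecan, had 594 ± 47.0 CPM in training and 654 ± 70.4 CPM in sedentary hearts. Dcn, for decorin, had 635 ± 52.0 and 582 ± 47.3 CPM.

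**Figure D5:**
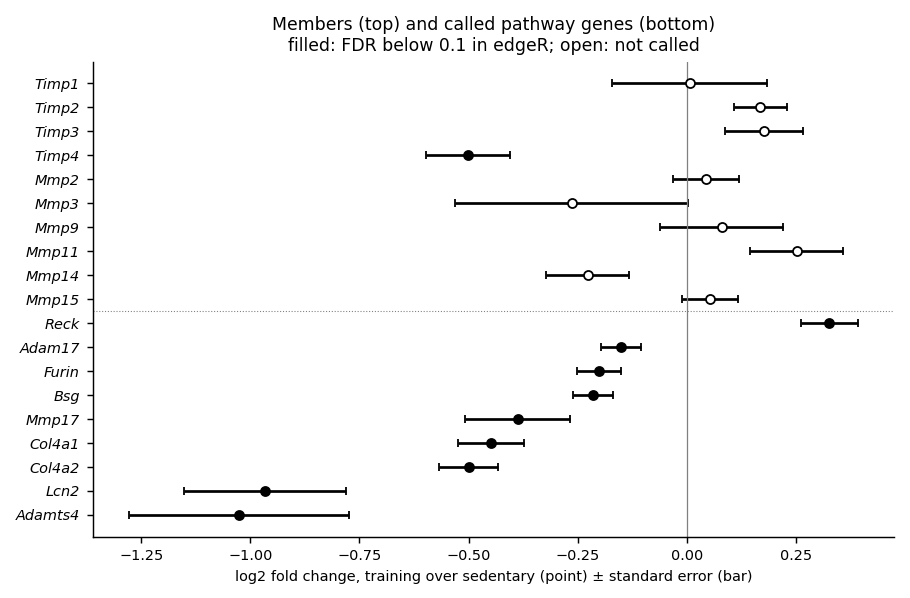
Log2 fold change of training over sedentary hearts with its standard error, for the 10 TIMP and MMP genes above the dotted line and 9 called genes of the wider pathway below it, filled where the FDR was below 0.1. Timp4 is the single filled point above the line, and Reck the single filled point to the right of 0.

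Within groups, the genes did not vary as 1 block. After the group means were removed, the log2 CPM of Mmp14 and Timp1 had a Pearson r of 0.80 over the 10 hearts, Timp3 and Timp4 one of 0.63, Mmp2 and Timp3 one of -0.73, and Mmp3 and Mmp15 one of -0.88. These are descriptions over hearts that share their libraries, and no test was made. Among 10233 other genes with at least 5 CPM, those most like Mmp2 were Sdc1, Rasa3 and Mbtps1 (r of 0.94, 0.93 and 0.92). Those most like Timp3 were Map3k6, Rab11b and Noct (0.98, 0.97 and 0.96), and those most like Timp4 were Rad1, Heatr6 and Cdc37l1 (0.93, 0.92 and 0.90).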

How the data were processed

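The authors aligned single reads of directional poly-A libraries to GRCm39 with STAR 2.7.10a and deposited raw counts per gene and strand. They also deposited expected counts, TPM and transcript lengths per gene from RSEM 1.3.3, whose strand setting is not stated. The reverse strand, with a median of 95.4% of all stranded counts, was used. Its counts came to 29461697 to 35945417 per training library and 35196993 to 39431030 per sedentary library (exact two-sided permutation test, p = 0.0238). Multimapping reads, between 17.9% and 19.2% of all reads, were left out, as were the other lines that name no gene, of which reads on no gene made up 4.15% to 4.89%, unmapped reads 0.837% to 1.05% and ambiguous reads 0.940% to 0.998%. Of 56748 identifiers, 56017 matched GENCODE M39.

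The groups were compared with edgeR 4.0.16 under R 4.3.3, using filterByExpr, TMM factors and the quasi-likelihood F test, and genes were called at a Benjamini-Hochberg FDR below 0.1, the FDR of the study's methods. Standard errors were the log2 fold change over the root of F. DESeq2 1.42.0 was an alternative. Log2 CPM took a prior count of 2, and a marker or clock gene score was the mean of its genes' centred log2 CPM. The steps were tested on simulated data. Pairs of libraries within a group differed by more than counting noise (chi-square per degree of freedom 6.15 to 27.9), and errors are given between hearts.

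The genes, lists, tests and alternatives were chosen with earlier results of these data known. Named were the 10 genes, each pathway gene below the FDR and the 2 genes of each list with the highest mean CPM. Also named were the 3 genes with the most similar pattern for the MMP and the TIMP of highest TPM and for each called gene. CPM is not corrected for transcript length, so ranks within the pathway and marker lists hold for read counts. Of the called pathway genes, 1 is counted but not reported here. Site sequences were read from the GENCODE M39 transcripts and placed on GRCm39, and promoter windows were read from the GRCm39 genome. Other alternatives were size factors, library totals, other filters, both strands, RSEM counts, thinned counts, covariates, the mouse number as a block, and leaving out hearts. RPKM over merged exons was the alternative for TPM.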

Additional observations from a re-analysis of the deposited data

Results flagged for a closer look

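In 5 of 44 groups of 5 hearts (10 genes, 10 called pathway genes and 2 ratios), 1 heart stood far from the others, judged by its gap to the nearest heart over the group's range, and chance marks about 1 group in 20. Timp4 was 68.3 CPM in sedentary heart 1, where the next lowest sedentary heart had 82.9 CPM. The same heart had the lowest Timp4 share of the TIMP sum in its group, 9.21%, against 11.2% in the next. Without it the log2 fold change of Timp4 was -0.56. Timp2 was 226 CPM in training heart 3, where the next highest had 189 CPM, and without that heart its log2 fold change was 0.10 (edgeR adjusted p = 0.248). Lcn2 was 5.14 CPM in training heart 3, where the next highest had 3.41 CPM. Mmp11 was 4.35 CPM in sedentary heart 4, where the next lowest had 6.11 CPM, and without that heart its log2 fold change was 0.16 (edgeR unadjusted p = 0.0670, adjusted p = 0.327).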

How the results depend on the processing

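Of 250 values, the 10 genes under 25 alternatives, 222 kept their direction and side of the threshold, 5 lost a call (all Timp4), 5 gained one and 18 changed sign. The calls gained were those of Timp2, Mmp3 and Mmp14 given above. DESeq2, library totals without TMM and the fibroblast score gave 2 called genes each. The cardiomyocyte score, the endothelial score and the fit without sedentary hearts 2 and 5, all added after seeing the data, gave 0. The call with the atrial score was Mmp3 in place of Timp4. Over all genes, 1084 were called, and 505 at an FDR below 0.05, 126 with the atrial, 195 with the fibroblast, 23 with the cardiomyocyte and 73 with the endothelial score, and 282 without sedentary hearts 2 and 5. Leaving out 1 heart gave 512 to 1490, with 540 without training heart 3, 512 without training heart 4, and 611, 512 and 671 without sedentary hearts 2, 3 and 4. Library totals gave 1029 higher and 339 lower genes, against 425 and 659, with the median of all genes shifted to 0.05. The causes were not tested.

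The sign changed in genes that were not called. Timp1 went from 0.01 to -0.0015 with no filter, -0.0125 with the mouse number as a replicate block, -0.0039 with thinned counts, -0.16, -0.33 and -0.28 with the atrial, fibroblast and cardiomyocyte scores, -0.13 without sedentary hearts 2 and 5, and -0.14 to 0.10 with 1 heart left out. Mmp2 was -0.079 and -0.15 with the fibroblast and cardiomyocyte scores and -0.024 to 0.077 with 1 heart left out. Mmp9 was -0.030 with the atrial score and -0.027 without sedentary hearts 2 and 5. Mmp3 was 0.056 with the clock gene score. On RPKM over merged exons in place of TPM, 8 of the 10 genes kept their place in the order, and Mmp3 and Mmp14 exchanged theirs.

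Hearts with the same mouse number had residual correlations between -0.10 and 0.16 and were not treated as pairs. With the mouse number as a replicate block 1137 genes were called, and of the 10 genes Timp4 alone. Depth limits Mmp9 and Timp1 most, with at least 79 and 104 counts per heart.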
